A study of Lotus japonicus with 12 samples.

Results

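Legume root nodules pass from a young stage into a mature stage in which the rhizobia inside them fix nitrogen. The question addressed here is for which genes of Lotus japonicus the effect of the cpop1 mutation differed between the stages, and which group of nodules stood apart when it did. The quantity studied is the difference of effects, computed for each gene as cpop1 minus wild type (WT) at 21 days post inoculation (dpi) minus the same difference at 10 dpi, on log2(FPKM + 1). FPKM count fragments per kilobase of a transcript, relative to all fragments of its library. Of 29531 features in the deposited table, 22249 reached 1 FPKM in at least 3 of the 12 libraries and were tested. At the edge of this filter, 819 features reached 1 FPKM in exactly 3 libraries and were kept, and 708 reached it in exactly 2 and were left out.

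The 12 libraries form 4 groups of 3: root nodules of cpop1 plants at 21 dpi, of WT plants at 21 dpi, of cpop1 plants at 10 dpi and of WT plants at 10 dpi. The mutant genotype is given as cpop1/hemf2 in the labels, and its table columns carry the name hemf2. All plants had been inoculated with Mesorhizobium loti MAFF 303099, so no group is free of rhizobia. The labels name neither the lesion of the cpop1 allele nor the number of plants behind a library. Nothing in them says that replicates came from separate plants, so the spread behind the p-values may be that of technical repeats.

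Heme, an iron porphyrin, is the cofactor of leghemoglobin, the oxygen carrier of legume nodules. Leghemoglobin keeps free oxygen low around the rhizobia, whose nitrogenase is inactivated by oxygen, while delivering oxygen for respiration. The series title names CPOP1 as an enzyme of heme synthesis needed for nitrogen fixation. None of the 40429 rows of the RefSeq gene table matched an ID of the deposited table, so genes are given by ID without name or function. The level of the mutated gene, the leghemoglobins and nodule markers were therefore not analysed here. Between 18486 and 20623 features reached 1 FPKM per library, the totals of FPKM ran from 985272 to 1224719, and the read depth is unknown. The log2 values of the library labelled WT 10 dpi replicate 3 had a mean correlation across genes of 0.935 with the cpop1 10 dpi libraries and of 0.843 with the other WT 10 dpi libraries. It thus lay closer to the other genotype than to the one on its label, and whether the label is right was not tested. Every mean of young WT nodules from 3 libraries includes it, so the counts of called genes, the sizes of the sets and the differences of the named IDs are also given without it. Whether a group differed by fewer cells of a type or by less RNA per cell cannot be told apart in whole nodules.

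The genotype effect differed between the ages for 4441 genes, 20% of those tested (limma, Benjamini-Hochberg adjusted p under 0.05). The difference was positive, meaning that cpop1 stood higher relative to WT at 21 than at 10 dpi, for 2161 genes (9.71%) and negative for 2280 (10.2%). The positive share was 48.7% as deposited and 61.8% when FPKM were rescaled to a common total without the 20 most abundant genes. The median size of the difference was 1.30 on the log2 scale among the called genes and 0.50 among all tested. At least 2-fold differences were seen for 3129 of the called genes and at least 4-fold differences for 916. Without WT 10 dpi replicate 3 the test called 8647 genes (38.9%), 3812 positive (17.1%) and 4835 negative (21.7%). All 4441 genes called with 12 libraries were among them with the same sign, and 4206 were called only without that library. The lowest count with a single library left out was 2858, without cpop1 21 dpi replicate 1, and leaving out any of the other 10 gave 2979 to 4738.

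The called genes took several shapes. For 2118 of them (47.7%) cpop1 differed from WT in the same direction at both ages and more at 21 dpi, a shape held by 53.6% of all tested genes. For 271 (6.1%) the direction was shared and the effect was larger at 10 dpi, against 21.5% of all tested genes. The effects pointed in opposite directions for 2039 called genes (45.9%), against 24.8% of all tested genes. Both effects were at least 2-fold for 75 of these, out of 85 among all tested genes. An effect of at least 2-fold at 21 dpi stood beside one under 1.2-fold at 10 dpi for 920 called genes, and the reverse held for 163. Among all tested genes 1291 (5.8%) and 303 (1.36%) had these shapes. Without WT 10 dpi replicate 3 the numbers of called genes were 718 (8.3%) and 510 (5.9%), against 20.7% and 3.67% with it. A shared direction with the larger effect at 10 dpi then held for 1914 called genes (22.1%). Shares over all tested genes were not computed without that library. Among called genes the balance between the ages thus moved with that library, while their number rose to 8647.

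Each called gene was then sorted by its group means of log2(FPKM + 1). A gene was assigned to a group when that group was the highest or the lowest of the 4 with a gap to its nearest neighbour larger than the range of the other 3. The sort uses the values of the tested difference and is a description. With all 12 libraries it assigned 3228 of the 4441 genes (72.7%), against 50.7% of all tested genes that had such a shape. Mature cpop1 nodules stood apart for 1145 called genes, mature WT nodules for 1538, young cpop1 nodules for 297 and young WT nodules for 248. The mature groups held 25.8% and 34.6% of the called genes, beside 13.4% and 23.3% of all tested genes with these shapes. The young groups held 6.69% and 5.58%, beside 8.49% and 5.54% of all tested genes, so their shares were not above the background. Another 245 were crossovers, in which mature cpop1 and young WT nodules lay on one side and mature WT and young cpop1 nodules on the other. The remaining 968 could not be assigned. Crossovers made up 5.52% of the called and 2.21% of all tested genes, and the unassigned 21.8% and 47.1%. Just inside the rule stood LotjaGi4g1v0312500, with a gap 1.0004 times the range, and just outside it LotjaGi1g1v0071700, with 0.9995 times.

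**Figure D1:**
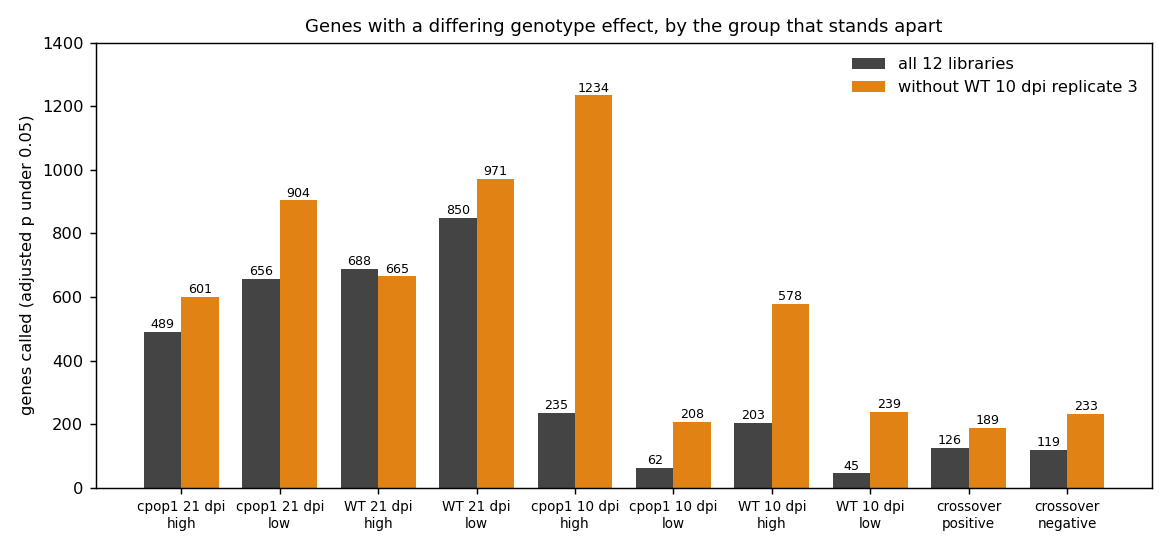
Bars show the number of genes with a differing genotype effect (limma, adjusted p under 0.05), sorted by the group that stands apart and by its direction, or as crossovers by the sign of the difference. Dark bars use all 12 libraries and orange bars leave out WT 10 dpi replicate 3, where genes highest in young cpop1 nodules number 1234 against 235. Of all tested genes, 2215 had this shape without that library and 1402 with it.

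WT 10 dpi replicate 3 moved the young groups most. Without it young cpop1 nodules stood apart for 1442 called genes and young WT nodules for 817, against 297 and 248. The young groups then held 16.7% and 9.45% of the called genes, beside 12.1% and 8.2% of all tested genes. The counts for mature cpop1 and mature WT nodules were 1505 and 1636, against 1145 and 1538. Of the 4206 genes called only without the library, 1558 (37%) could not be assigned, the largest class, beside 52.5% of all tested genes. Another 362 were assigned to mature cpop1 nodules, 406 to mature WT nodules, 1140 (27.1%) to young cpop1 nodules and 563 (13.4%) to young WT nodules, and 177 were crossovers. Among the 4441 genes called both ways, 1059 of the 1145 mature cpop1 genes, 1196 of the 1538 mature WT genes, 275 of the 297 young cpop1 genes and 231 of the 248 young WT genes kept their group. Another 341 mature WT genes became unassigned. When replicate 3 stood alone for young WT nodules, that group had no spread of its own, so counts from that fit are not compared here.

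Leaving out single libraries of the other groups also lowered some of these counts, along with the number of genes called. Mature WT nodules stood apart for 956 of 2858 and 981 of 2983 called genes without cpop1 21 dpi replicates 1 and 2. The numbers were 1011 of 2979 without cpop1 10 dpi replicate 2, beside 1538 of 4441 with all 12 libraries. For young cpop1 nodules the count was 178 to 184 without any 1 of cpop1 21 dpi replicates 1 to 3, WT 21 dpi replicates 1 and 3 or cpop1 10 dpi replicate 2. The genes called in those fits numbered 2858 to 3198, and the young cpop1 count with all 12 libraries was 297.

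**Figure D2:**
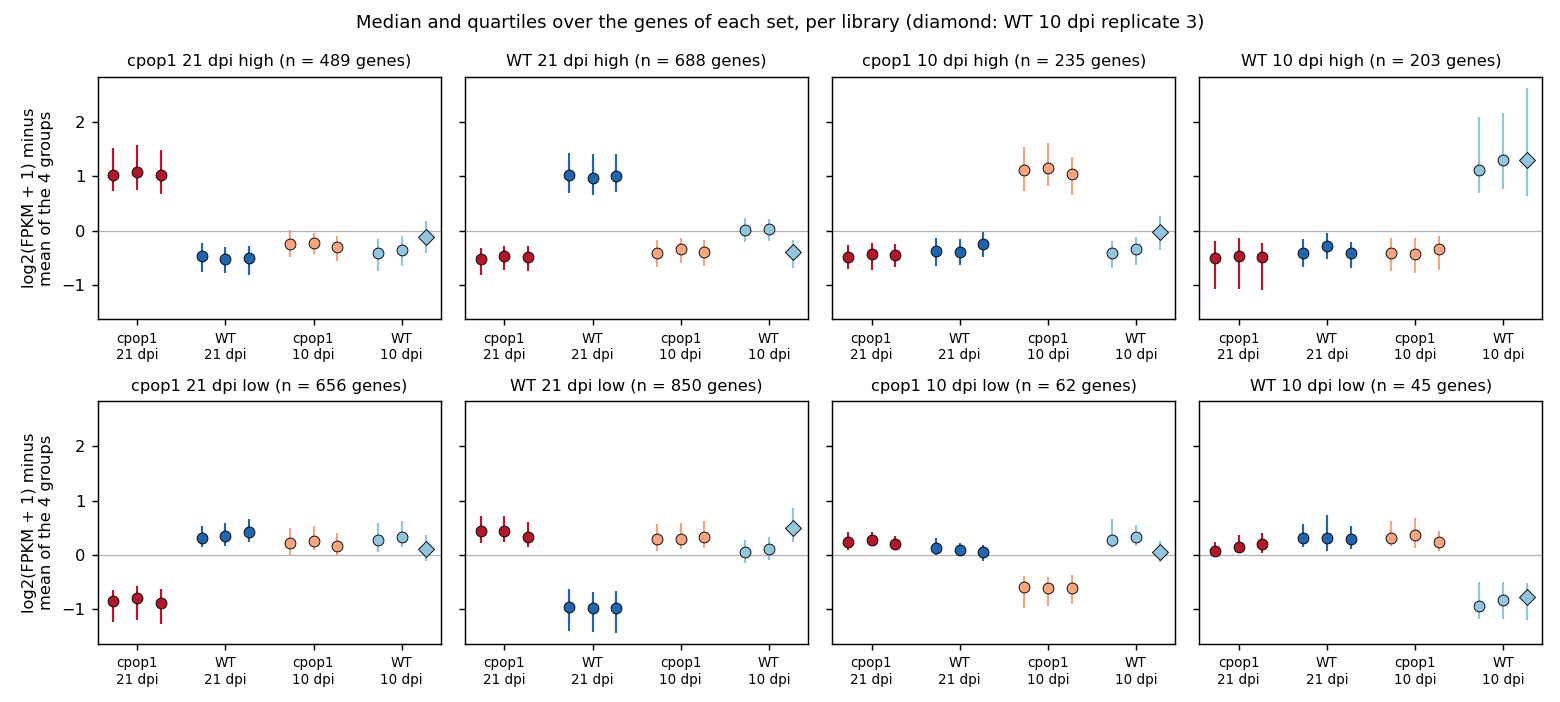
Points are the medians, and lines the quartiles, over the genes of each set of log2(FPKM + 1) minus the mean of the 4 group means, for each library in the order of replicates 1 to 3. WT 10 dpi replicate 3 (diamond) lies at 0.49 in the set lowest in mature WT nodules, where replicates 1 and 2 lie at 0.059 and 0.107.

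Mature cpop1 nodules were highest for 489 called genes and lowest for 656, and for 601 and 904 without WT 10 dpi replicate 3. Among all tested genes 1073 and 1905 had these shapes, and 958 and 1626 without that library. For the 489 and the 656 called genes the median difference of effects was 1.49 and -1.20. Their median genotype effect at 21 dpi was 1.54 and -1.19, against 0.0097 and 0.00082 at 10 dpi. For the 601 and the 904 called without WT 10 dpi replicate 3 it was 1.47 and -1.08, against 0.118 and -0.0735. The sort itself asks for such a pattern, since the other 3 groups make up the range that the gap had to exceed. LotjaGi3g1v0533400 stood at 135, 123 and 139 FPKM in mature cpop1 nodules and at 0.35, 0.22 and 0.51 in mature WT nodules, with 17.9, 9.11 and 7.56 in young cpop1 and 0.41, 0.76 and 26.1 in young WT nodules. The mature cpop1 libraries were above all others, and WT 10 dpi replicate 3 was far above its own group and above the young cpop1 libraries. The difference of effects was 5.08 ± 1.24 (SE; limma adjusted p = 0.0169), and 3.71 ± 0.37 without that library.

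LotjaGi1g1v0305900 stood at 43.2, 25.1 and 40.8 FPKM in mature cpop1 and 0.70, 1.35 and 2.21 in mature WT nodules, against 2.71, 5.33 and 2.56 in young cpop1 and 3.99, 4.78 and 8.99 in young WT nodules. It was thus high in mature cpop1 nodules in every library, and the young genotypes overlapped. Its difference was 4.55 ± 0.49 (limma adjusted p = 0.000265), and 4.26 ± 0.44 without WT 10 dpi replicate 3.

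LotjaGi1g1v0539500 was nearly lost from mature cpop1 nodules, at 0.79, 1.85 and 0 FPKM, against 268, 351 and 302 in mature WT nodules. Young nodules varied widely, with 266, 85.8 and 22.1 FPKM in cpop1 and 204, 200.3 and 27.9 in WT. The young genotypes overlapped, and every young library was far above the mature cpop1 ones. The difference was -7.09 ± 1.27 (limma adjusted p = 0.00394), and -6.15 ± 1.03 without WT 10 dpi replicate 3. LotjaGi3g1v0246500_LC showed the same loss with tighter young libraries: 0.34, 0.69 and 0 FPKM in mature cpop1 and 85.8, 69.2 and 83.8 in mature WT, with 152, 85.5 and 40.5 in young cpop1 and 38.4, 32.0 and 38.6 in young WT nodules. Here the young cpop1 libraries were all above the young WT ones, so that the order of the genotypes was opposite at the ages. The difference was -7.07 ± 0.54 (limma adjusted p = 3.79e-05), and -7.11 ± 0.56 without that library.

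Genes present or absent by group means were few. Mature cpop1 nodules alone reached 5 FPKM, with the other 3 groups under 1, for 10 of the 489 genes, at 5.28 to 18.6 FPKM. They alone fell under 1 FPKM while the other 3 groups were at 5 or more for 11 of the 656. Over all tested genes, 10 and 28 had these patterns.

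Mature WT nodules were highest for 688 called genes and lowest for 850, and for 665 and 971 without WT 10 dpi replicate 3. Among all tested genes 1893 and 3288 had these shapes, and 1154 and 1752 without that library. For the 688 and the 850 called genes the median difference of effects was -1.28 and 1.27. Their median age change was 1.17 and -1.20 in WT, and -0.11 and 0.12 in cpop1. The sort itself asks for such a pattern, since both cpop1 groups and young WT nodules make up the range that the gap had to exceed.

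LotjaGi5g1v0043800_LC was the most abundant ID named for this group, at 6.14, 8.10 and 8.79 FPKM in mature cpop1 and 3113, 4105 and 5171 in mature WT nodules. Young nodules had 5.26, 6.61 and 5.25 FPKM in cpop1 and 33.0, 57.3 and 81.6 in WT. The cpop1 libraries of both ages stayed under 10 FPKM, and the WT libraries were higher at each age and did not overlap between the ages. The difference was -5.84 ± 0.41 (limma adjusted p = 2.67e-05), and -6.14 ± 0.33 without WT 10 dpi replicate 3. BGI_novel_G000719 stood at 4.55, 8.60 and 9.87 FPKM in mature cpop1 and 170, 353 and 434 in mature WT nodules, with 53.1, 54.4 and 27.9 in young cpop1 and 20.1, 16.1 and 14.6 in young WT nodules. Mature cpop1 libraries were below the mature WT ones and young cpop1 libraries above the young WT ones, with no overlap at either age. Its difference was -6.48 ± 0.54 (limma adjusted p = 5.53e-05), and -6.38 ± 0.56 without that library.

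LotjaGi1g1v0066900 stood at 156, 184 and 162 FPKM in mature cpop1 and 2.37, 3.86 and 3.21 in mature WT nodules. In young nodules it was at 54.7, 35.0 and 15.9 FPKM in cpop1 and 31.3, 36.0 and 90.4 in WT. The mature genotypes were parted in opposite directions from overlapping young levels. The difference was 5.92 ± 0.63 (limma adjusted p = 0.000235), and 5.45 ± 0.50 without WT 10 dpi replicate 3. LotjaGi6g1v0282700 stood at 157, 150 and 108 FPKM in mature cpop1 and 0.85, 0.57 and 0.29 in mature WT nodules, with 63.1, 99.7 and 106 in young cpop1 and 11.5, 19.0 and 273 in young WT nodules. WT 10 dpi replicate 3 was the highest library of all for this ID, above every cpop1 library. The difference was 5.36 ± 1.24 (limma adjusted p = 0.0134), and 3.99 ± 0.36 without it. Mature WT nodules alone reached 5 FPKM for 19 of the 688 genes and alone fell under 1 FPKM for 32 of the 850, against 19 and 169 of all tested genes.

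**Figure D3:**
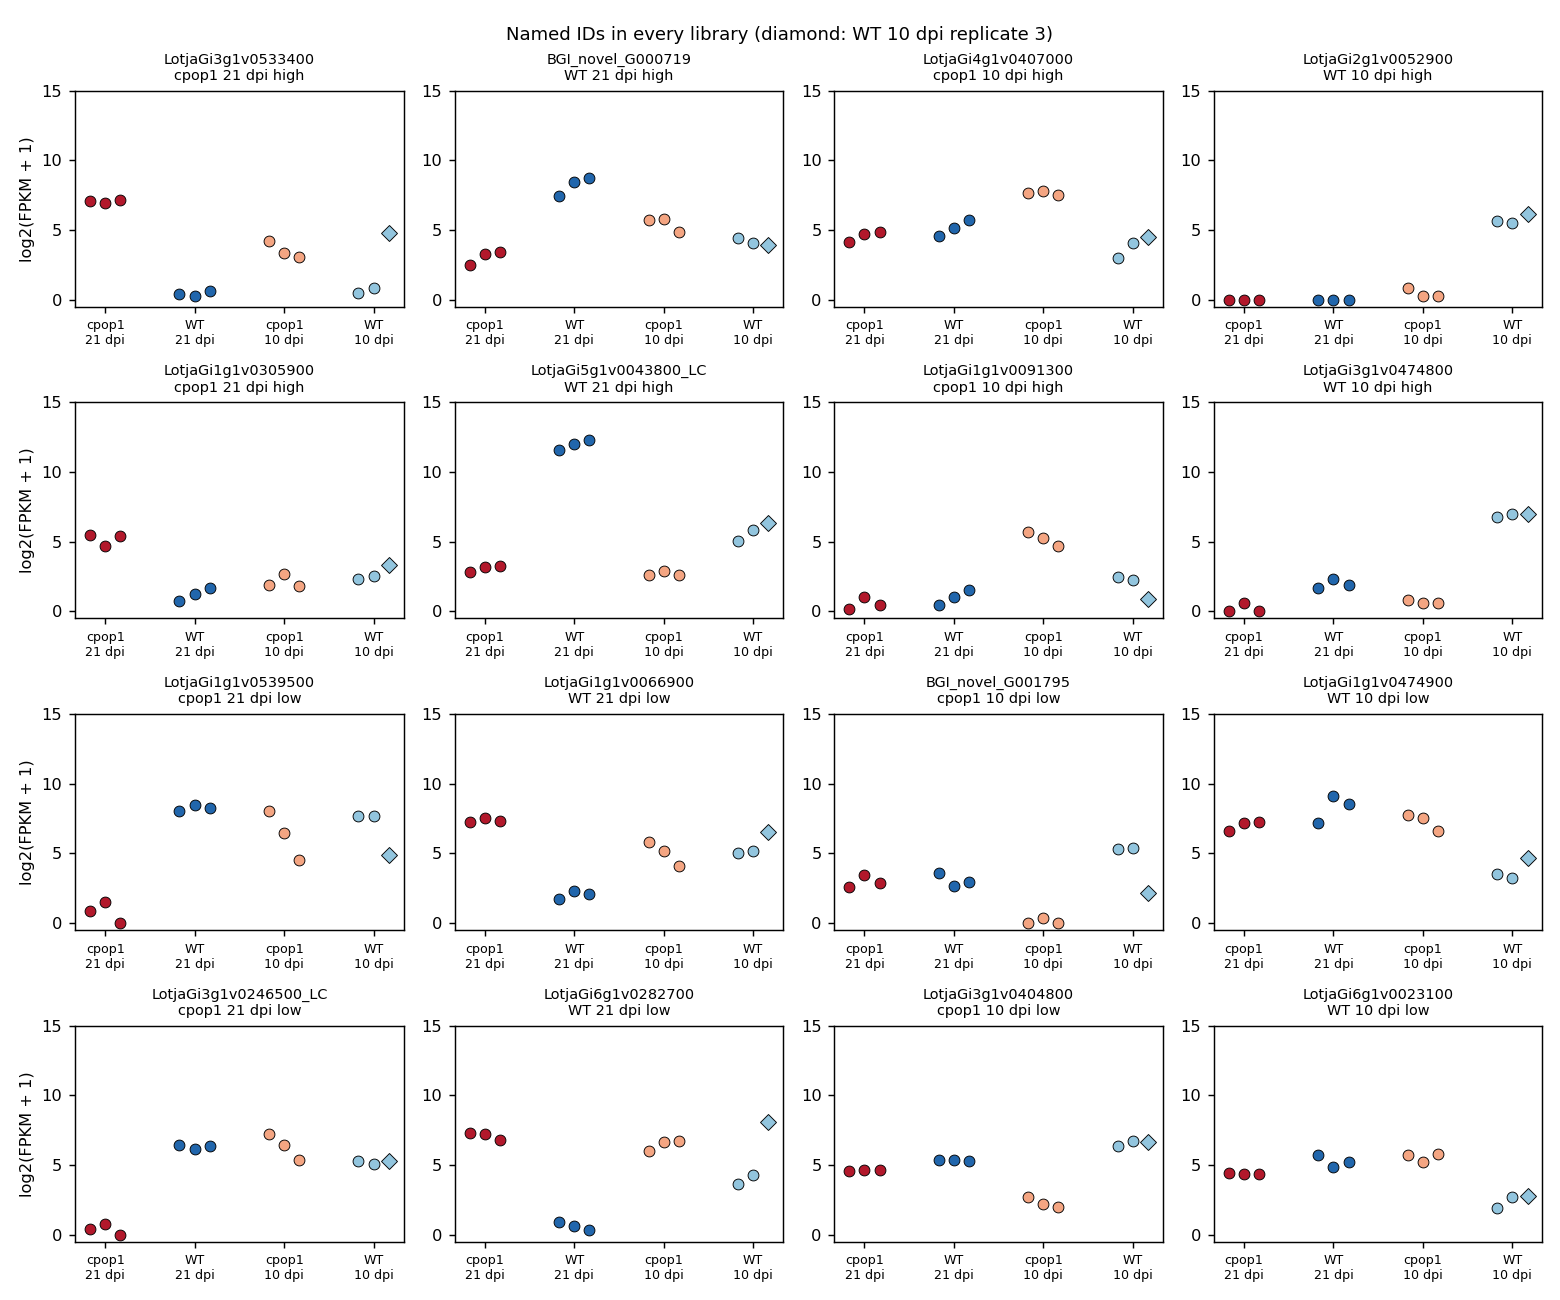
Each panel shows log2(FPKM + 1) of a named ID in every library, with the columns of panels for mature cpop1, mature WT, young cpop1 and young WT nodules as the group standing apart, 2 IDs high and 2 low in each. WT 10 dpi replicate 3 (diamond) is at 273 FPKM for LotjaGi6g1v0282700, where replicates 1 and 2 are at 11.5 and 19.0.

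Young cpop1 nodules were highest for 235 called genes and lowest for 62, and for 1234 and 208 without WT 10 dpi replicate 3. Among all tested genes 1402 and 487 had these shapes, and 2215 and 486 without that library. For the 235 and the 62 called genes the median genotype effect at 21 dpi was -0.11 and 0.14, and at 10 dpi 1.33 and -0.84. For the 1234 and the 208 called without that library it was 0.17 and -0.0064 at 21 dpi, and 1.35 and -0.86 at 10 dpi. In the set of 235 the median FPKM was 3.54 in mature cpop1, 4.19 in mature WT, 13.6 in young cpop1 and 4.23 in young WT nodules. The sort itself asks for a large effect at 10 dpi beside a small one at 21 dpi.

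LotjaGi4g1v0407000 stood at 16.8, 25.4 and 27.6 FPKM in mature cpop1 and 23.3, 34.3 and 52.2 in mature WT nodules, with 197, 223 and 179 in young cpop1 and 6.82, 15.5 and 21.3 in young WT nodules. The young cpop1 libraries were above all others, and the mature genotypes overlapped. The difference was -4.40 ± 0.53 (limma adjusted p = 0.000497), and -4.72 ± 0.47 without WT 10 dpi replicate 3. LotjaGi1g1v0091300 stood at 0.14, 1.09 and 0.41 FPKM in mature cpop1 and 0.40, 1.06 and 1.89 in mature WT nodules, and at 50.1, 37.7 and 24.4 in young cpop1 and 4.56, 3.76 and 0.82 in young WT nodules. Its level was under 2 FPKM in every mature library. The difference was -3.78 ± 0.63 (limma adjusted p = 0.0028), and -3.28 ± 0.48 without that library.

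Of the IDs lowest in young cpop1 nodules, LotjaGi3g1v0404800 stood at 23.3, 24.0 and 24.2 FPKM in mature cpop1 and 40.7, 41.3 and 38.2 in mature WT nodules. Young nodules had 5.51, 3.60 and 2.90 FPKM in cpop1 and 80.2, 106 and 99.5 in WT. The genotypes did not overlap at either age, and the gap was smaller in mature nodules. The difference was 3.56 ± 0.25 (limma adjusted p = 2.64e-05), and 3.53 ± 0.25 without WT 10 dpi replicate 3, the smallest standard errors of the IDs named for this group. BGI_novel_G001795 stood at 5.13, 9.76 and 6.37 FPKM in mature cpop1 and 11.1, 5.28 and 6.57 in mature WT nodules, with 0, 0.26 and 0 in young cpop1 and 39.6, 40.7 and 3.40 in young WT nodules. WT 10 dpi replicate 3 was the lowest WT library. The difference was 4.10 ± 1.0 (limma adjusted p = 0.0173), and 5.17 ± 0.38 without it. Among the 62 genes it was the only 1 with a mean under 1 FPKM in young cpop1 nodules and of 5 or more in the other groups. The reverse held among the 235 for BGI_novel_G000618, LotjaGi6g1v0315200 and LotjaGi6g1v0315400, at means of 5.51, 7.40 and 10.7 FPKM in young cpop1 nodules, which were singled out after their values were seen. Over all tested genes, 3 and 7 had these patterns.

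Young WT nodules were highest for 203 called genes and lowest for 45, and for 578 and 239 without WT 10 dpi replicate 3. Among all tested genes 921 and 312 had these shapes, and 1250 and 574 without that library. The median FPKM of the 203 was 0.787 in mature cpop1, 1.90 in mature WT, 1.54 in young cpop1 and 12.9 in young WT nodules. Here too the sort itself asks for such a pattern. Present only in young WT nodules, at 5 FPKM or more with the other groups under 1, were 23 of the 203, at 5.24 to 55.0 FPKM, and 24 of all tested genes. None was under 1 FPKM only there, among the called or all tested genes.

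LotjaGi2g1v0052900 was listed at 0 FPKM in all 6 mature libraries, and stood at 0.75, 0.18 and 0.18 in young cpop1 and 50.2, 44.9 and 69.9 in young WT nodules. It was thus a transcript of young WT nodules in every replicate. The difference was 5.35 ± 0.29 (limma adjusted p = 1.82e-05), and 5.17 ± 0.24 without WT 10 dpi replicate 3. LotjaGi3g1v0474800 stood at 0, 0.51 and 0 FPKM in mature cpop1 and 2.21, 3.91 and 2.75 in mature WT nodules, with 0.78, 0.51 and 0.49 in young cpop1 and 111, 127 and 128 in young WT nodules. WT was above cpop1 at each age, by far more in young nodules. The difference was 4.51 ± 0.30 (limma adjusted p = 2.36e-05), and 4.47 ± 0.30 without that library.

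LotjaGi1g1v0474900 stood at 97.8, 141 and 149 FPKM in mature cpop1 and 144, 549 and 365 in mature WT nodules. Young nodules had 210, 188 and 98.9 FPKM in cpop1 and 10.5, 8.24 and 24.5 in WT. The young WT libraries were below all others, and the young cpop1 ones lay within the range of the mature ones. The difference was -4.77 ± 0.72 (limma adjusted p = 0.00168), and -5.20 ± 0.64 without WT 10 dpi replicate 3. LotjaGi6g1v0023100 stood at 21.0, 19.4 and 19.5 FPKM in mature cpop1 and 51.3, 28.0 and 36.4 in mature WT nodules, with 51.1, 37.1 and 55.3 in young cpop1 and 2.73, 5.58 and 5.97 in young WT nodules. The mature cpop1 libraries were all below the mature WT ones, and the young cpop1 libraries all above the young WT ones. The difference was -3.99 ± 0.38 (limma adjusted p = 0.000127), and -4.16 ± 0.37 without that library.

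**Figure D4:**
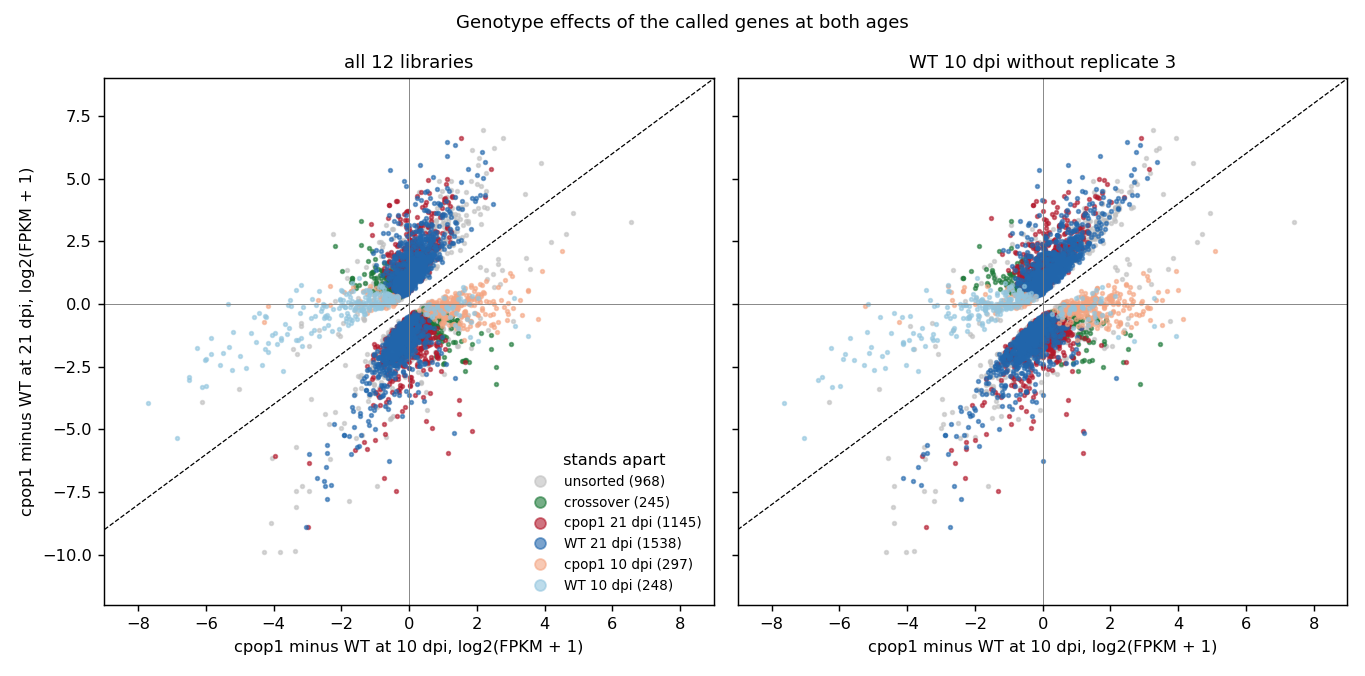
Each point is a called gene, placed by cpop1 minus WT at 10 dpi (horizontal) and at 21 dpi (vertical) on log2(FPKM + 1), with WT 10 dpi taken from 3 libraries (left) or without replicate 3 (right) and colours from the sort with all 12 libraries. The dashed line marks equal effects, and the 245 crossovers lie where the effects have opposite signs.

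Among crossovers the difference was positive for 126 genes and negative for 119, and for 189 and 233 without WT 10 dpi replicate 3. Among all tested genes 257 and 234 had these shapes, and 251 and 294 without that library. The median genotype effects of the 126 called genes were 0.75 at 21 dpi and -0.56 at 10 dpi. Those of the 119 were -0.75 and 0.70. Opposite signs are part of the definition of a crossover. LotjaGi1g1v0314100 stood at 3.19, 3.12 and 2.99 FPKM in mature cpop1 and 42.9, 35.1 and 33.0 in mature WT nodules, and at 17.3, 13.0 and 13.4 in young cpop1 and 1.04, 1.16 and 3.06 in young WT nodules. The genotypes were parted without overlap in opposite directions at the ages. The difference was -5.77 ± 0.34 (limma adjusted p = 1.82e-05), and -6.08 ± 0.20 without WT 10 dpi replicate 3. LotjaGi3g1v0112500 stood at 22.1, 22.7 and 21.7 FPKM in mature cpop1 and 9.51, 9.37 and 6.13 in mature WT nodules, and at 6.43, 5.47 and 3.50 in young cpop1 and 22.5, 28.2 and 18.9 in young WT nodules. The difference was 3.33 ± 0.31 (limma adjusted p = 0.000112), and 3.46 ± 0.30 without that library. LotjaGi4g1v0228800 (4.53 ± 0.54) and LotjaGi4g1v0269400 (-5.09 ± 0.99) were the other two named, with limma adjusted p = 0.00045 and 0.00575, and 4.21 ± 0.48 and -4.31 ± 0.75 without that library.

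The genes called only without WT 10 dpi replicate 3 include some in which that library lay outside both young groups. LotjaGi1g1v0150100 stood at 1.47, 1.25 and 0.97 FPKM in mature cpop1 and 15.6, 15.6 and 15.2 in mature WT nodules, with 14.3, 27.7 and 32.3 in young cpop1 and 7.40, 7.65 and 154 in young WT nodules. Its difference was -3.01 ± 1.26 with all libraries (limma adjusted p = 0.118) and -4.41 ± 0.35 without replicate 3 (limma adjusted p = 1.17e-05). LotjaGi3g1v0038300 stood at 25.7, 28.1 and 28.7 FPKM in mature cpop1 and 6.31, 9.35 and 6.14 in mature WT nodules, with 14.0, 10.5 and 4.43 in young cpop1 and 31.9, 25.02 and 0.58 in young WT nodules. Here replicate 3 was the lowest of all 12 libraries. The difference was 1.98 ± 1.30 with it (limma adjusted p = 0.313) and 3.39 ± 0.46 without it (limma adjusted p = 0.000309).

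In other such genes the library lay among the young cpop1 libraries. LotjaGi1g1v0250900 stood at 11.0, 11.6 and 12.4 FPKM in mature cpop1 and 49.8, 47.9 and 33.6 in mature WT nodules, with 4.83, 2.11 and 1.16 in young cpop1 and 105, 118 and 4.44 in young WT nodules. LotjaGi3g1v0005100 stood under 2 FPKM in all mature libraries, and at 104, 40.9 and 25.2 FPKM in young cpop1 and 2.90, 2.56 and 81.5 in young WT nodules. Their differences without the library were 3.24 ± 0.43 and -3.91 ± 0.68 (limma adjusted p = 0.000293 and 0.00138), against 1.79 ± 1.33 and -2.42 ± 1.45 with it (limma adjusted p = 0.38 and 0.268). Over the 951 genes assigned to young cpop1 nodules without replicate 3 and at least 2-fold changed at 10 dpi, the median position of that library was 0.89, where 0 is the mean of WT replicates 1 and 2 and 1 the mean of young cpop1 libraries. It was nearer cpop1 for 79.8% of these genes, for 82.8% of the 99 such genes assigned to mature cpop1 nodules, for 84.9% of the 146 of mature WT nodules, for 86.6% of the 1272 unassigned and for 58.5% of the 455 of young WT nodules. For the 76 such crossovers the share was 56.6%. The mature and unassigned sets thus had higher shares than the young cpop1 set. In sets called and sorted with the library included it was nearer cpop1 for 28.6% of 206 young cpop1 genes and 10.6% of 180 young WT genes. The shares there were 80.2% of 81 mature cpop1 genes, 87.7% of 203 mature WT genes, 63.3% of 289 unassigned genes and 44.6% of 65 crossovers. In all these sets the library's own value bore on the choice of genes. The sets called without it were also chosen for a gap between WT replicates 1 and 2 and the young cpop1 libraries, the ends of this scale. Where another WT library would lie under such a choice was not tested.

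The called genes were also described by the form of their IDs, which the sort did not use. Of IDs beginning with LotjaGi and a digit, without suffix, 3477 of 16780 were called (20.7%), 1749 of them with a positive difference (50.3%). Without WT 10 dpi replicate 3 these were 6831 called and 2924 positive. Of IDs with the suffix _LC, 409 of 2456 were called (16.7%), 196 positive, and 836 without that library, 446 positive. Of IDs beginning with BGI_novel, 553 of 2957 were called (18.7%). Of these, 214 were positive (38.7%) and 191 were highest in mature WT nodules. Over all called genes 48.7% were positive, and 688 (15.5%) were highest in mature WT nodules. Without that library 977 BGI_novel IDs were called, 440 positive, beside 44.1% positive over all called genes. The median difference over all tested BGI_novel IDs was -0.125 with that library and -0.0051 without it. The median mean level of BGI_novel IDs was 2.30 FPKM, against 13.8 FPKM for LotjaGi IDs without suffix. Only 1 of 33 IDs beginning with LotjaGiC and 1 of 23 beginning with LotjaGiM were called, LotjaGiC1v0004200 (1.02 ± 0.24, limma adjusted p = 0.0136) and LotjaGiM1v0005100 (1.27 ± 0.39, limma adjusted p = 0.0445), both with group means under 2 FPKM. By the digit after LotjaGi, from 1 to 6, the share called ran from 19.3% to 21.4%.

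Genes with neighbouring ID numbers rarely stood in the same set. In the set lowest in mature cpop1 nodules, 44 of 604 numbered genes had the next or preceding ID of the table in the same set (7.28%), while 4.80% of all numbered genes tested had a neighbour in it. The shares were 5.34% and 3.23% for the set highest in mature cpop1 nodules, 6.46% and 3.90% for the set highest in mature WT nodules and 6.54% and 6.11% for the set lowest there. For the set highest in young cpop1 nodules the shares were 3.7% and 1.6%, and 11.1% and 9.05% without WT 10 dpi replicate 3. For the set highest in young WT nodules they were 1.06% (2 of 188) and 1.55%. Without that library the order was reversed, at 5.66% (26 of 459) and 3.6%. No gene of the sets lowest in young cpop1 or young WT nodules had such a neighbour with all 12 libraries. Without WT 10 dpi replicate 3, 2 of 180 and 2 of 215 did. No run in any set was longer than 2 IDs with all 12 libraries. Without WT 10 dpi replicate 3 the longest was 4 IDs, LotjaGi2g1v0361500 to LotjaGi2g1v0361800_LC, highest in young cpop1 nodules and singled out after its values were seen. Whether ID numbers follow the order along a chromosome is not given in the sources used here.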

How the data were processed

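The deposited values are FPKM made by the authors, 1 column per library with 2 decimals, per the file headers. The submitters' processing notes list HISAT and Bowtie2 2.2.5 without saying what each was used for. Which tool, genome build and annotation gave the FPKM was not found in the labels or the header. Columns were matched to samples by the labels' description field. The table has 25983 IDs beginning with LotjaGi and 3548 beginning with BGI_novel, and 4 rows share 2 repeated IDs and were kept apart. Since FPKM share a fixed scale within a library, a change in very abundant transcripts shifts all others. Read depth is unknown: the most frequent ratio of low values to WT 10 dpi replicate 1 was 1.0 to 1.035 across libraries, over 56 to 125 features, which concerns relative depth only.

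The 12 libraries were fitted together on log2(FPKM + 1), each group having its own mean, with limma 3.58.1 (eBayes with trend) in R 4.3.3, and p-values were Benjamini-Hochberg adjusted over 22249 genes. Fold changes on this scale understate changes of low genes. The fit and the sort were also run on simulated data, but no outcome of that run is given here. It therefore does not show how they behave when a library lies closer to another group than to its own. Figures used Python 3.11.15 and matplotlib 3.10.9.

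Named IDs are the 2 with the largest difference of effects per set and direction, called and sorted alike with and without WT 10 dpi replicate 3, whose highest group had a mean of 5 FPKM or more, and the 2 positive and 2 negative called only without it. No gene was called only with it. The question, the sets and the rules were chosen with earlier results of these data known.

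Alternatives were another pseudocount, filters, scalings, a replicate block, library weights, robust eBayes, other margins of the sort, and libraries left out.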

Additional observations from a re-analysis of the deposited data

Results flagged for a closer look

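The direct test of cpop1 effects at 21 against 10 dpi found 4441 genes in which they were unequal. Among the named IDs, those standing apart in mature cpop1 nodules had differences on the log2 scale of 5.08 (LotjaGi3g1v0533400), 4.55 (LotjaGi1g1v0305900), -7.09 (LotjaGi1g1v0539500) and -7.07 (LotjaGi3g1v0246500_LC). Those of mature WT nodules had -6.48 (BGI_novel_G000719), -5.84 (LotjaGi5g1v0043800_LC), 5.92 (LotjaGi1g1v0066900) and 5.36 (LotjaGi6g1v0282700). Those of young cpop1 nodules had -4.40 (LotjaGi4g1v0407000), -3.78 (LotjaGi1g1v0091300), 4.10 (BGI_novel_G001795) and 3.56 (LotjaGi3g1v0404800). Those of young WT nodules had 5.35 (LotjaGi2g1v0052900), 4.51 (LotjaGi3g1v0474800), -4.77 (LotjaGi1g1v0474900) and -3.99 (LotjaGi6g1v0023100). The crossovers had 4.53 (LotjaGi4g1v0228800), 3.33 (LotjaGi3g1v0112500), -5.77 (LotjaGi1g1v0314100) and -5.09 (LotjaGi4g1v0269400).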

How the results depend on the processing

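With each single library left out in turn, the number of genes called lay between 2858 and 8647, the positive share between 44.1% and 52.4%, and the genes assigned to mature cpop1, mature WT, young cpop1 and young WT nodules between 813 and 1505, 956 and 1999, 178 and 1442, and 172 and 817. With WT 10 dpi replicate 3 alone for its group, whose spread was then assumed to be that of the other groups, 11874 genes were called, 57.8% positive, with 6189 assigned to mature WT and 806 to young WT nodules. Differences then had the opposite sign for LotjaGi3g1v0038300 (-0.82), LotjaGi1g1v0250900 (-1.12) and LotjaGi3g1v0005100 (0.55), which had not passed the test with all libraries. Library weights, whose estimation stopped before converging, gave 13318 calls, 45.4% positive, with 2058, 2203 and 1292 assigned to mature cpop1, young cpop1 and young WT nodules. The positive share was 50.7% with a pseudocount of 0.1, 46.5% at a common median and 61.8% without the 20 most abundant genes. A filter at 5 FPKM left 164 young WT genes. A gap of at least 2 ranges left 554 mature cpop1, 797 mature WT, 148 young cpop1 and 145 young WT genes. The causes were not tested. The 20 named IDs that had passed the test kept their sign and side of the threshold under all 21 settings run for them. Their choice had required a call without WT 10 dpi replicate 3, so the outcome of that setting was fixed in advance. The other settings refit the same data for IDs picked for large differences. The replicate block called 4123 genes and changed no call of a named ID. Same-numbered libraries correlated at -0.12 to 0.27 in their deviations, with 4 of 18 pairs over 0.1. The highest values, 0.27 and 0.219, were between the cpop1 and WT 10 dpi libraries numbered 1 and 3. Of the 12 libraries, 4 correlated best with their own number. With 3 libraries per group these values cannot decide whether equal numbers mark paired samples. Reads behind each value are unknown, so low values carry an unstated counting error.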
